A study of Mus musculus with 4 samples.

Results

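Inflammatory fibroblasts of mouse dorsal skin on day 4 after wounding were described from 1 Xenium In Situ slide, which records single transcripts of 328 panel genes at their place in a tissue section. A cell was counted as a fibroblast when it had at least 10 transcripts and at least 2 transcripts of Pdgfra, Col1a1 and Lum together, and as an inflammatory fibroblast when it also held at least 4 transcripts of Cxcl5, Ptx3, Saa3 and Ccl7 together. By this rule 9156 of 47652 fibroblasts were inflammatory fibroblasts, among 123433 cells of that depth in 3 sections and 515791 cells on all 4 slides. The mice were littermates of a TRE-Pitx1/Krt5-rtTA line, Control without and PITX1+ with doxycycline, which turns on the transcription factor PITX1 in keratinocytes that use the Krt5 promoter. The labels give the slide as POD4 wounded dorsal skin of male Control and PITX1+ mice, with vehicle or doxycycline treatment, so that drug and transgene expression cannot be told apart. Section 1 was taken as Control and sections 2 and 3 as PITX1+, from their order and the outline of the tissue on the slide and not from a label of each section, and section 2 was placed by elimination. The labels do not say whether the sections came from separate mice, and every p-value below covers only the spread among 3 sections.

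Fibroblasts make the collagenous matrix of the dermis, and after injury some of them take on an inflammatory state in which they secrete chemokines and acute phase proteins. CXCL5 and CXCL1 are ligands of CXCR2, the receptor that draws neutrophils, and CCL7 draws monocytes. SAA3 is an acute phase serum amyloid A protein, and PTX3 is a soluble pattern recognition molecule of innate immunity. The study drove PITX1 in the epidermis and asked how it changes wound healing, and the comparisons here ask how common and where these fibroblasts were and what else they expressed.

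The slide held 10483436 transcripts at quality 20 or above, of which 99.1% lay in cells. The 3 sections held 1622746, 3336168 and 5430303 transcripts, and section 1 stood apart by its lower number of cells (34635 against 56004 and 83576). Levels are given as CPM, the transcripts of a gene in 1000000 transcripts counted. Pitx1 in keratinocyte-like cells reached 64.1 (45.4 to 88.0) CPM of all panel genes in section 1, 626 (585 to 668) in section 2 and 323 (295 to 352) in section 3 (95% exact Poisson intervals, counting error only). The intervals of section 1 and of the other sections did not overlap. The inflammatory fibroblasts themselves held 2, 3 and 17 Pitx1 transcripts in sections 1, 2 and 3.

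Inflammatory fibroblasts made up 9.77% of the fibroblasts of the Control section (716 of 7327, 95% exact binomial interval 9.10% to 10.5%). In the PITX1+ sections they made up 22.9% (2905 of 12698, 22.1% to 23.6%) in section 2 and 20.03% (5535 of 27627, 19.6% to 20.5%) in section 3. The share was more than 2-fold higher in each PITX1+ section than in the Control section, and 1 Control section allows no test of the difference. It was higher by less than 2-fold in both with a threshold of 3 transcripts (15.1%, 29.4% and 27.6%), and in section 3 with transcripts over the nucleus (5.51%, 15.3% and 9.79%). The order was kept when every fibroblast was thinned to 30 transcripts, where the shares were 1.42%, 5.16% and 3.69% of the 6543, 11293 and 24522 fibroblasts deep enough to thin. Cells just outside the rule, with 3 transcripts of the 4 genes, made up 5.30%, 6.48% and 7.55% of fibroblasts, and cells just inside it, with 4 transcripts, made up 3.00%, 5.13% and 5.66%.

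**Figure D1:**
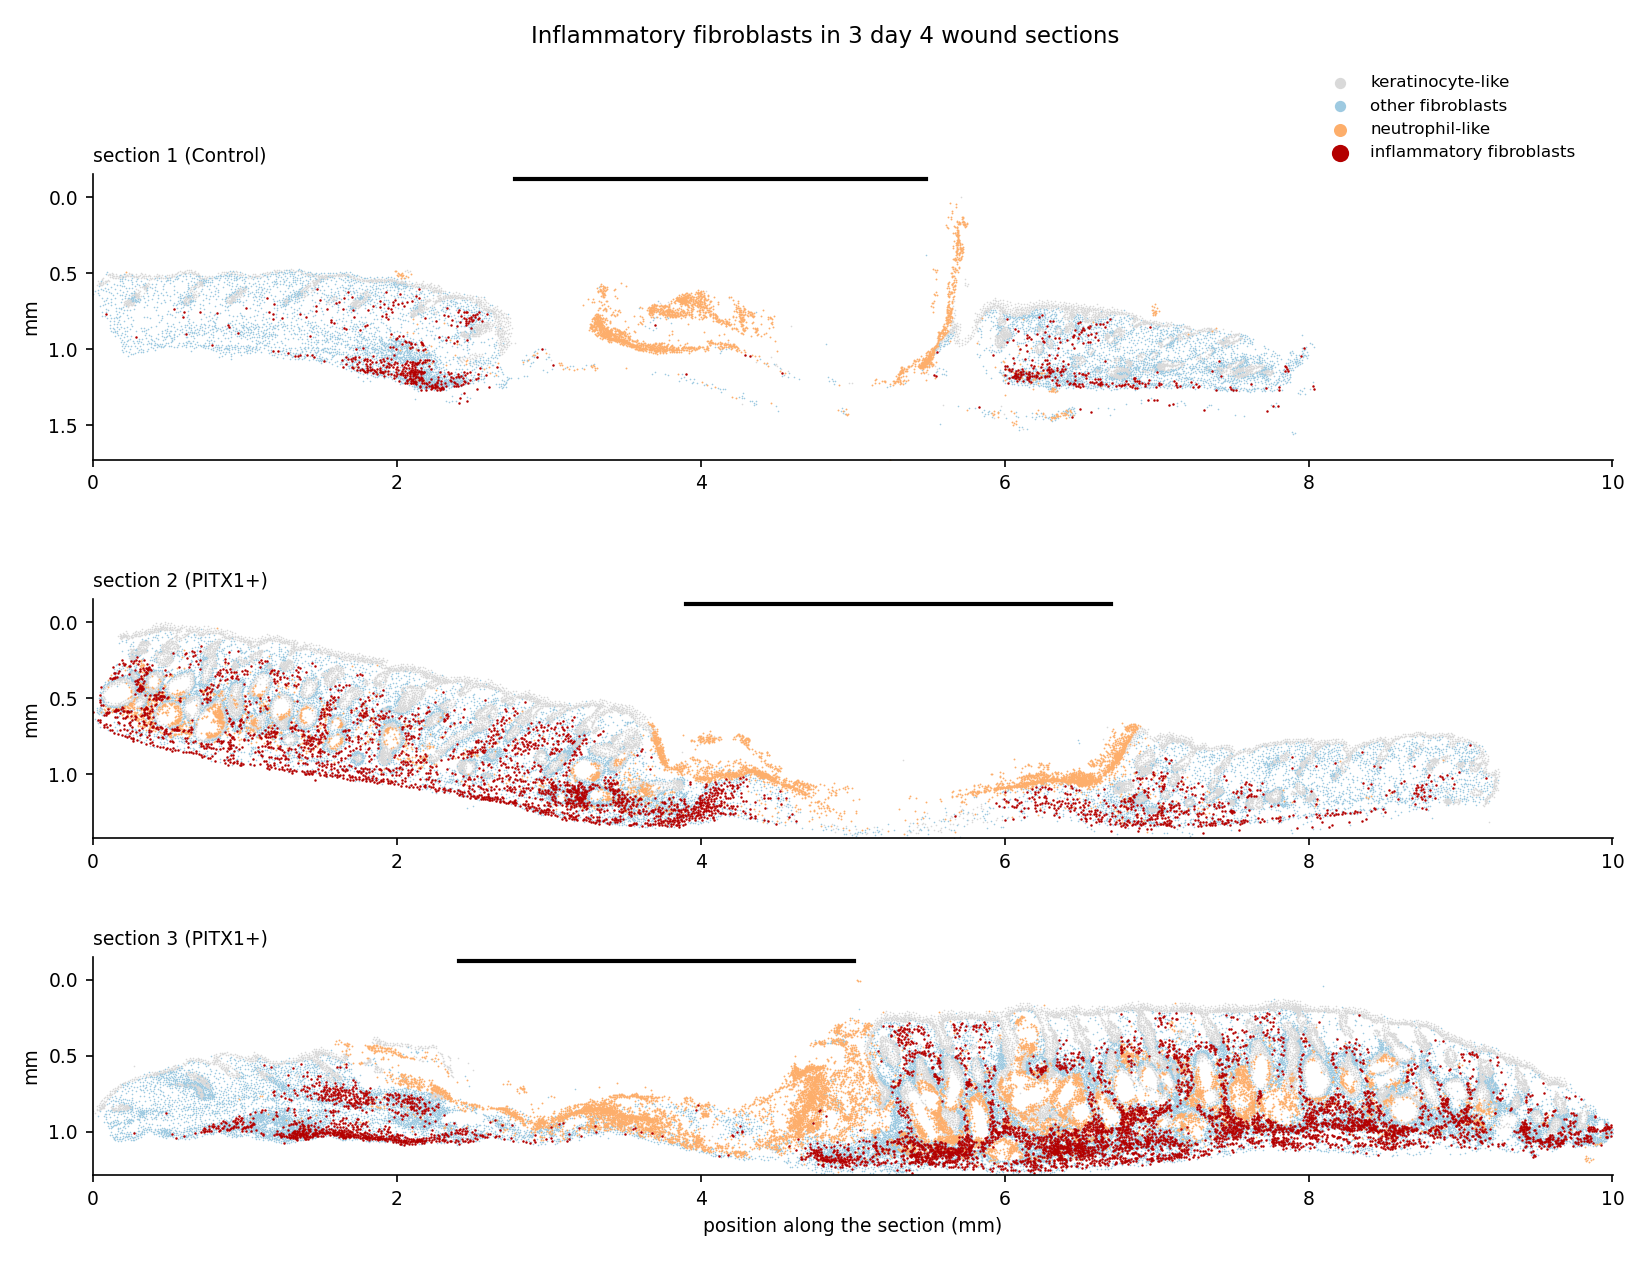
Positions of inflammatory fibroblasts (red), other fibroblasts (blue), neutrophil-like cells (orange) and keratinocyte-like cells (grey) in the 3 wound sections, each dot a cell, both axes in mm and the skin surface at the top; the black bar marks the gap in the epidermis. Red cells lie along the base of the skin near the gap in every section, and far from the gap they stay frequent in the left flank of section 2 and the right flank of section 3.

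The 4 genes that chose the cells differed in their share of the signal between sections, and their levels are given as a description. Saa3 was at 3.72, 4.04 and 4.54 transcripts per cell in the inflammatory fibroblasts of sections 1, 2 and 3, against 0.295, 0.385 and 0.595 in other fibroblasts. Cxcl5 was at 1.13, 2.83 and 1.43 transcripts per cell, against 0.0755, 0.178 and 0.129. Cxcl5 and Ptx3 were the genes that set section 2 apart, while Ccl7 was highest in the Control section and Saa3 in section 3. Ccl7 was at 1.69, 1.30 and 1.02 transcripts per cell, against 0.169, 0.131 and 0.100. Ptx3 was at 0.320, 0.607 and 0.236 transcripts per cell, against 0.0210, 0.0256 and 0.0165. Saa3 was detected in 83.8%, 86.5% and 96.0% of the inflammatory fibroblasts, Cxcl5 in 43.9%, 70.0% and 53.8%, Ccl7 in 60.2%, 49.0% and 42.3%, and Ptx3 in 18.2%, 29.5% and 14.1%. Most inflammatory fibroblasts held transcripts of at least 2 of the genes, and 27.4%, 17.0% and 26.8% held only 1 of them. Among all fibroblasts with Ptx3, 28.5%, 64.9% and 43.5% held Cxcl5, against 8.99%, 22.8% and 18.4% of those without Ptx3. These cells were not matched on depth, and the part of depth in these shares was not tested.

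**Figure D2:**
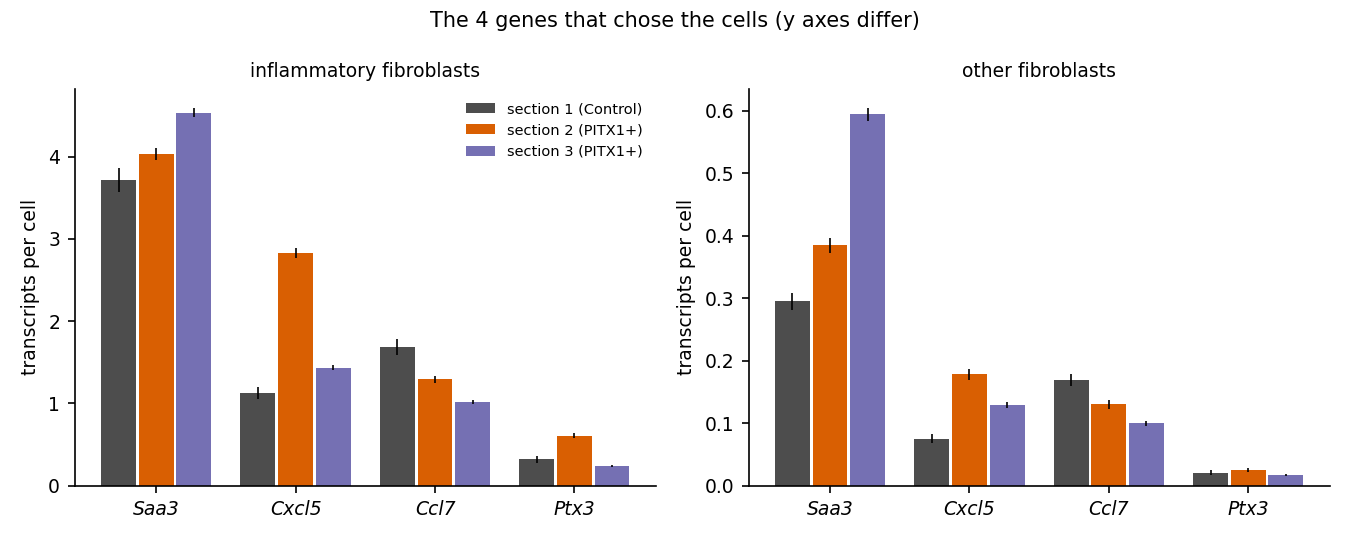
Transcripts per cell of Saa3, Cxcl5, Ccl7 and Ptx3 in inflammatory fibroblasts (left) and other fibroblasts (right) of each section, with 95% normal intervals of the count (counting error only). Cxcl5 in inflammatory fibroblasts is highest in section 2 at 2.83 transcripts per cell, against 1.13 in section 1 and 1.43 in section 3.

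The label was checked against markers of other cell types. Fibroblast markers held the most transcripts in 64.1%, 57.4% and 57.1% of the inflammatory fibroblasts of sections 1, 2 and 3, and in 40.9%, 36.6% and 39.9% of other fibroblasts. Macrophage markers led in 30.03%, 29.6% and 25.5% of the inflammatory fibroblasts, against 29.5%, 27.8% and 28.3% of other fibroblasts. The fibroblast markers are the 3 genes of the rule, so that their lead describes the choice of cells and is no separate check of the label. The 9 macrophage markers summed to 102540, 88237 and 84205 CPM in inflammatory fibroblasts, against 90732, 79138 and 84672 in other fibroblasts. Keratinocyte markers were lower in inflammatory fibroblasts, at 3023, 2258 and 3794 CPM for the sum of 10 genes, against 43824, 58267 and 26430. Inflammatory fibroblasts held less RNA of keratinocytes than other fibroblasts did. The 6 neutrophil markers summed to 8655, 16972 and 23835 CPM, against 9240, 21753 and 33861. Macrophage-like cells outside the fibroblast rule held 0.0600, 0.102 and 0.0821 Cxcl5 transcripts per cell, against 0.0755, 0.178 and 0.129 in other fibroblasts. Their Saa3 was at 0.123, 0.363 and 0.440 transcripts per cell, against 0.295, 0.385 and 0.595. Their Ccl7 was at 0.194, 0.184 and 0.0997, against 0.169, 0.131 and 0.100. Ccl7 was thus higher than in other fibroblasts in sections 1 and 2 and level with them in section 3. Other fibroblasts are by the rule those with fewer than 4 transcripts of genes that include Ccl7. Macrophage-like cells were not cut this way, and they held a median of 43 transcripts in each section, against 78, 70 and 68. These comparisons therefore cannot say whether a gene of the rule sets fibroblasts apart from macrophage-like cells. Whether the macrophage transcripts came from cells lying over or beside the fibroblasts in the section was not tested. The comparison of genes below was therefore also made over only those cells whose leading markers were of fibroblasts, an alternative chosen after seeing the data that leans on the same 3 genes.

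Genes outside the rule were compared between inflammatory and other fibroblasts on counts summed per section, in a model with the section as a block. They were read in the same cells and at the same time as the genes that chose them. Inflammatory fibroblasts were also deeper, with a median of 101.5, 99 and 91 transcripts outside the rule against 69, 63 and 61. Of 320 genes tested, 53 (16.6%) were higher and 90 (28.1%) were lower in inflammatory fibroblasts (edgeR quasi-likelihood test, adjusted p under 0.05). Scaling by library size in place of TMM moved the median of all genes by -0.39 on the log2 scale and gave 28 (8.75%) higher and 132 (41.2%) lower genes, so that higher genes were 17.5% of the calls in place of 37.1%. DESeq2 moved it by 0.23 and gave 86 higher and 84 lower genes, with 50.6% of the calls higher. Among cells whose leading markers were of fibroblasts, 36 of 285 genes (12.6%) were higher and 41 (14.4%) were lower. With other fibroblasts drawn to the same depth, 56 genes were higher and 91 lower. Without the section as a block, 18 were higher and 53 lower, and Cxcl1, Cxcl13, Csf3, Mmp3, Tnc, Efemp1, Pi16, Timp3, Acta2 and Wif1 lost their calls. Without cells that held 2 or more transcripts of neutrophil, macrophage or keratinocyte markers, 27 of 245 genes were higher and 33 lower, and Csf3, Cxcl13, Pi16 and the keratinocyte genes Col17a1, Cstdc5, Krt17, Krt6a and Trp63 were among those that lost their calls. Levels below are CPM over the 321 genes outside the rule, with inflammatory before other fibroblasts and sections in the order 1, 2 and 3.

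Chemokines were among the genes that rose most. Cxcl1, a CXCR2 ligand like Cxcl5, was at 2197 against 357 CPM in section 1, 7616 against 2205 in section 2 and 4643 against 1676 in section 3. It was higher in every section (log2 fold change 2.32 ± 0.25 (SE, n = 3 sections), edgeR adjusted p = 0.00164). Cxcl12, the ligand of CXCR4, was at 25553 against 10710.1, 27849.6 against 8401 and 19257 against 7189.7. It rose in every section (log2 fold change 1.85 ± 0.13 (SE, n = 3 sections), edgeR adjusted p = 0.000865). Cxcl13, which draws B cells, was at 1238 against 613, 3784 against 951 and 412 against 219, with its highest level in section 2. It rose (log2 fold change 1.70 ± 0.28 (SE, n = 3 sections), edgeR adjusted p = 0.00507), but the call was lost among cells whose leading markers were of fibroblasts (log2 fold change 1.32, edgeR adjusted p = 0.0562). Of the 10 tested chemokines of monocytes and other leukocytes, 5 rose (Cxcl12, Cxcl13, Ccl8, Ccl12 and Ccl19) and none fell, against 16.6% and 28.1% of all genes. Their median log2 fold change was 0.51 against -0.20 over all genes. Library size scaling left 3 of the 10 higher and called 1 lower, against 8.75% and 41.2% of all genes. Among cells led by fibroblast markers only Cxcl12 of 9 tested rose, near the share of all genes (12.6%). Cxcl3, another CXCR2 ligand, was at 583 against 717, 232 against 380.2 and 372 against 1156 and did not pass the test (-0.52, edgeR adjusted p = 0.243).

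Of 8 tested acute phase and cytokine genes 1 rose, against 16.6% of all genes, and of 6 cytokine receptors 3 rose. With library size scaling 3 of the 8 fell (Il1rn, Il34 and Ctf1), near the share of all genes that fell with that scaling (41.2%). Csf3, the granulocyte colony stimulating factor, was at 85.0 against 33.2, 365 against 154 and 456 against 313, from 7, 121 and 260 transcripts in inflammatory fibroblasts. It rose (log2 fold change 1.35 ± 0.31 (SE, n = 3 sections), edgeR adjusted p = 0.0165) and was the acute phase or cytokine gene that passed. Il1r1, the signalling receptor of interleukin 1, was at 7162 against 3064, 9726 against 4217 and 8349 against 4364. It rose in every section (log2 fold change 1.51 ± 0.13 (SE, n = 3 sections), edgeR adjusted p = 0.000987). Il6st, the shared receptor chain of the interleukin 6 family, rose by 0.65 on the log2 scale (edgeR adjusted p = 0.0144), and Cntfr, the receptor of ciliary neurotrophic factor, by 0.48 (edgeR adjusted p = 0.0471). Of these receptors only Il1r1 kept its call with library size scaling. Il1rn, the interleukin 1 receptor antagonist, was at 1287 against 1882, 1402 against 3829 and 4158 against 8160.1 and missed the threshold (-0.62, edgeR adjusted p = 0.0519). It was called lower under several alternatives, among them library size scaling and depth-matched cells (-0.66), while among cells led by fibroblast markers the difference was -0.0014 (edgeR adjusted p = 0.997). Of 9 immediate early and stress transcription factors none rose and Id1 fell, against 16.6% and 28.1% of all genes. Among cells led by fibroblast markers Junb and Cebpb rose and none fell, against 12.6% and 14.4% of all genes. With depth-matched cells Junb rose and Id1 fell.

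Of 13 matrix genes tested, 10 rose, 3 did not pass and none fell, against 16.6% of all genes that rose and 28.1% that fell. Their median log2 fold change was 0.83. With library size scaling 6 rose and none fell, against 8.75% and 41.2% of all genes. Among cells led by fibroblast markers 5 of 13 rose and 8 did not pass, against 12.6% of all genes that rose. Tenascin C (Tnc), a matrix glycoprotein of healing wounds, was at 18888 against 9585, 32487 against 17630 and 37430 against 20740.1 (log2 fold change 1.29 ± 0.10 (SE, n = 3 sections), edgeR adjusted p = 0.000865). Collagen V (Col5a1), which regulates fibril assembly, was at 39015 against 22498, 29918 against 17439 and 37425 against 24726 (log2 fold change 1.11 ± 0.10 (SE, n = 3 sections), edgeR adjusted p = 0.000987). Efemp1, an extracellular glycoprotein, was at 3885 against 2017, 4758 against 1540.1 and 886 against 682, and its difference in section 3 was the smallest (log2 fold change 1.37 ± 0.26 (SE, n = 3 sections), edgeR adjusted p = 0.00857). Timp1, the secreted inhibitor of metalloproteases, was at 5803 against 1734, 12735 against 3554 and 8205 against 2704. It rose in every section (log2 fold change 2.11 ± 0.13 (SE, n = 3 sections), edgeR adjusted p = 0.000602). Mmp3, the stromelysin that cleaves matrix proteins, was at 23781 against 8877, 26679.8 against 15639.5 and 55273 against 36369 (log2 fold change 1.32 ± 0.18 (SE, n = 3 sections), edgeR adjusted p = 0.00262). Mmp2 and Mmp14 also rose, by 1.22 (edgeR adjusted p = 0.000987) and 0.63 (edgeR adjusted p = 0.00615) on the log2 scale, and Mmp14 lost its call with library size scaling and among cells led by fibroblast markers. Timp3, an inhibitor bound to the matrix, went the other way, at 2088 against 5650.4, 977 against 2992 and 814 against 1638, and it fell (-0.97, edgeR adjusted p = 0.00836).

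Levels of 6 genes are given by the number of transcripts of the 4 chosen genes, as a description over bins that the rule's own values set. Timp1 went from 1065, 2282 and 1742 CPM in fibroblasts of sections 1, 2 and 3 with none of these transcripts to 10848, 16187 and 15729 in those with 16 or more. Cxcl1 went from 234, 2073 and 1331 to 4413, 14358 and 12461, and Mmp3 from 6541, 12403 and 30499 to 35852, 28715 and 64825. Depth rose along the bins as well, from a median of 76, 68 and 66 transcripts per cell to 207, 198.5 and 190.5, and its part in these levels was not tested. Tnc went from 7888, 14389 and 15298 to 14157, 37860.1 and 43107, and in section 1 it was highest at 5 to 7 transcripts (20461). Pi16 went from 3389, 1379 and 1501 to 10112, 14211 and 1909, with little change in section 3, and Il1rn went down from 1783, 4553 and 8569 to 184, 622 and 1974. The cells with 16 or more transcripts numbered 31, 336 and 282.

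Angptl4, Serpinb2, Scn7a and Pi16 were also among the genes with the largest rise. Angptl4, which inhibits lipoprotein lipase, was at 6409 against 2452, 8915 against 3215 and 8508 against 3745 (log2 fold change 1.73 ± 0.13 (SE, n = 3 sections), edgeR adjusted p = 0.000865). Serpinb2, the plasminogen activator inhibitor 2, was at 2221 against 1147, 3868 against 1111 and 3906 against 1689 (log2 fold change 1.71 ± 0.21 (SE, n = 3 sections), edgeR adjusted p = 0.00217). Scn7a, a sodium channel counted here among Schwann cell markers, was at 1432 against 731, 1489 against 496 and 846 against 533 (log2 fold change 1.46 ± 0.26 (SE, n = 3 sections), edgeR adjusted p = 0.00626), while the other 4 Schwann cell markers fell. Pi16, a gene of resting adventitial fibroblasts, was at 6883 against 4523, 9298 against 2338 and 2260.0 against 1741, with the widest gap in section 2 (log2 fold change 1.37 ± 0.33 (SE, n = 3 sections), edgeR adjusted p = 0.0189). Of 8 tested genes of resting dermal fibroblasts, 6 rose (Pi16, Gpx3, Tnxb, Efemp1, Col14a1 and Igfbp6), against 16.6% of all genes. With library size scaling 4 of 8 rose, against 8.75%. Among cells led by fibroblast markers 2 of 8 rose, against 12.6%, and Pi16 (0.90, edgeR adjusted p = 0.0999) and Efemp1 (0.68, edgeR adjusted p = 0.0710) were not called. Of 10 genes of insulin-like growth factors, Igf1, Igfbp6 and Igfbp7 rose and Igfbp2 fell, with a median log2 fold change of -0.03 against -0.20 over all genes, of which 16.6% rose and 28.1% fell. Igfbp7 did not pass among cells led by fibroblast markers (0.07, edgeR adjusted p = 0.607), and it reversed without cells holding markers of other classes. With library size scaling only Igf1 rose and 4 fell (Igf2, Igf1r, Igfbp2 and Igfbp3), near the 41.2% of all genes. Among cells led by fibroblast markers only Igf1 rose and Igfbp2 and Igfbp4 fell, against 12.6% and 14.4% of all genes. Igf1 was at 5135 against 3289, 4028 against 2501 and 2789.9 against 1950.4 (1.00, edgeR adjusted p = 0.00262).

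The genes that fell most were those of keratinocytes, and all 10 keratinocyte markers fell, against 28.1% of all genes. Among cells led by fibroblast markers 7 of them fell, against 14.4%. Col17a1, the hemidesmosome collagen, was at 109 against 2436, 103 against 2834 and 149 against 1365 (log2 fold change -3.69 ± 0.38 (SE, n = 3 sections), edgeR adjusted p = 0.00147). Krt5, the keratin of basal cells, was at 692 against 11514, 425 against 15062 and 811 against 6652 (log2 fold change -3.67 ± 0.42 (SE, n = 3 sections), edgeR adjusted p = 0.00204). Dsg3, Krt17, Lama3, Trp63, Krt6a, Krt16, Itgb4, Wnt4 and Cstdc5 fell by 2.24 to 3.30 on the log2 scale. Among cells led by fibroblast markers Krt6a (-1.38, edgeR adjusted p = 0.0710) and Krt16 (-0.88, edgeR adjusted p = 0.241) did not pass. Fewer inflammatory fibroblasts lay near keratinocyte-like cells, and 17.0%, 36.0% and 22.6% had one within 50 µm, against 44.1%, 65.7% and 43.7% of other fibroblasts. Wif1, a secreted inhibitor of WNT ligands made by dermal fibroblasts, was at 60.7 against 1064, 603 against 3016 and 96.5 against 1118. It fell (log2 fold change -2.76 ± 0.37 (SE, n = 3 sections), edgeR adjusted p = 0.00262), also among cells led by fibroblast markers (-3.16, edgeR adjusted p = 0.00505). Of 9 genes of WNT and Hedgehog signalling, 4 fell (Wif1, Dkk2, Wnt4 and the Hedgehog receptor Ptch1) and Lrp1 rose, against 28.1% of all genes that fell. With library size scaling 4 of 9 fell against 41.2% of all genes, and among cells led by fibroblast markers 4 of 9 against 14.4%. Of 5 contractile genes tested none rose and 2 fell, against 28.1% of all genes that fell. Acta2, the smooth muscle actin of myofibroblasts, was at 1712 against 5359, 1785 against 5389.7 and 2607 against 3939 and fell (-0.88, edgeR adjusted p = 0.0288), as did Myh11 (-1.56, edgeR adjusted p = 0.0254). With library size scaling 3 of 5 fell, against 41.2% of all genes. Among cells led by fibroblast markers 1 of 5 fell (Acta2), against 14.4%, and Myh11 did not pass (-1.63, edgeR adjusted p = 0.0657). Des, also on this list, was at 8352 against 19078, 14707 against 11250 and 10919 against 7866 and did not pass (0.29, edgeR adjusted p = 0.508). Of 10 genes of the cell cycle 1 rose (Prc1), against 16.6% of all genes. The call was lost with library size scaling, with depth-matched cells and without any 1 section. Of 9 macrophage markers 7 rose, against 16.6% of all genes, as did 7 with depth-matched cells, against 56 of 312 genes. Among cells led by fibroblast markers 5 rose (C1qa, Lyz2, C3ar1, Pf4 and Ctss), against 12.6%, and with library size scaling 0 rose, against 8.75%.

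**Figure D3:**
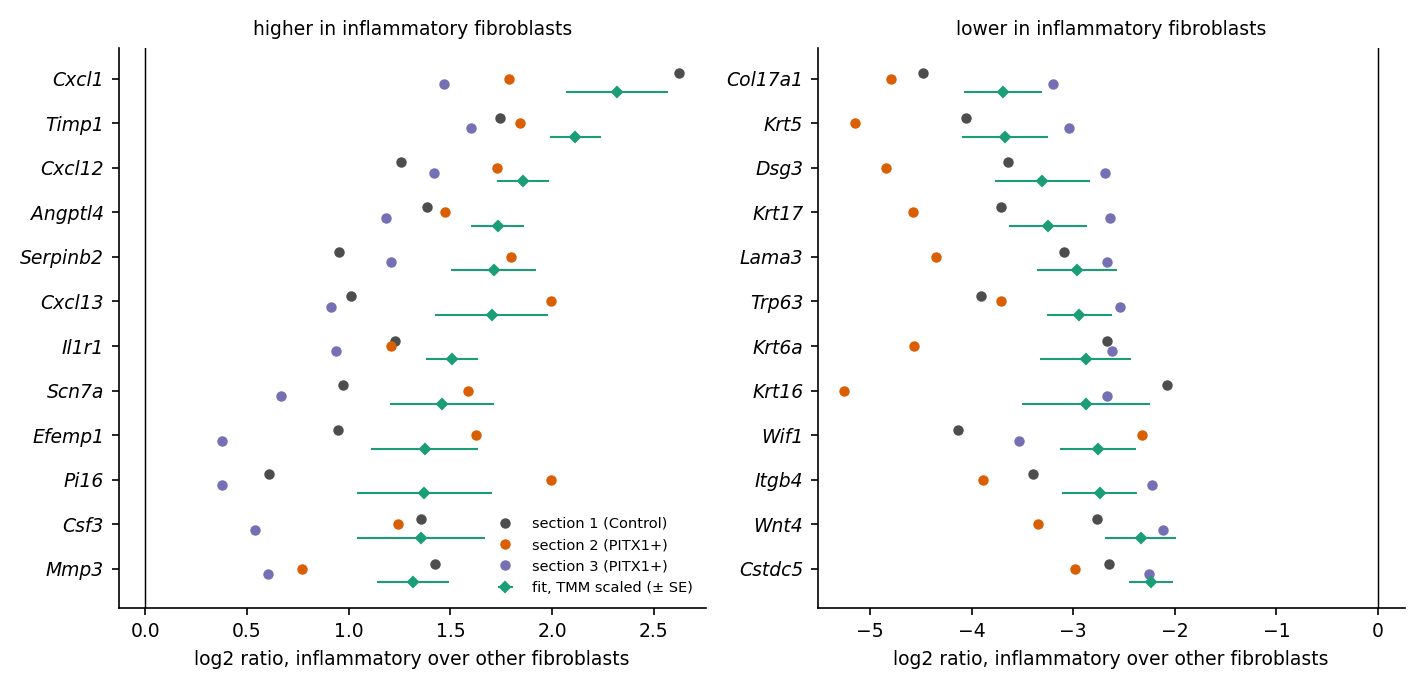
Log2 ratio of the level in inflammatory over other fibroblasts for the 12 genes with the largest rise (left) and fall (right), with a circle for each section from CPM and a green diamond with its SE for the edgeR fit, which is scaled by TMM. Every circle lies on the same side of 0 for each gene, which the choice of these genes required, and Cxcl1 ranks first on the left with a fitted value of 2.32.

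Short stretches of the proximal promoters are shown because several of the genes chosen by the rule or raised with them are known targets of inflammatory transcription factors. Promoter sequences of RefSeq (build GRCm38.p6) were held for 12 of 16 genes, the 4 genes of the rule and the 12 that rose most. The 250 bases before each start were searched on both strands for an NF-kB motif, for AP-1 (TGANTCA) and for C/EBP (TTGCNNAA, or TTNNGCAA on the other strand), and no matches of different motifs overlapped. Capitals mark the match, which began 57, 99, 71 and 46 bases before the start of Ptx3 (C/EBP), Saa3 (C/EBP), Cxcl1 (NF-kB) and Mmp3 (AP-1).
Ptx3 (chr3:66219819-66219848, GRCm38.p6, plus strand): gtggtttaacaTTGTGCAAcctcttcagct
Saa3 (chr7:46715757-46715786, GRCm38.p6, minus strand): ggtaagtgggaTTATGCAAgatcaaacagg
Cxcl1 (chr5:90891164-90891193, GRCm38.p6, plus strand): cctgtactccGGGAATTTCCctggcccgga
Mmp3 (chr9:7445765-7445794, GRCm38.p6, plus strand): ggaagcaattaTGAGTCAgttttcgggtga
A C/EBP match was present in 7 of the 12 genes, an AP-1 match in 3 and an NF-kB match in 1, and some genes had more than 1 start. Of 32851 promoters of the same length, 9.56% held the C/EBP motif, 6.75% the AP-1 motif and 5.00% the NF-kB motif. A match of letters is a description of the sequence and not evidence of binding.

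Inflammatory fibroblasts lay deep in the skin. Their median depth, as a share of the local thickness of the skin, was 78.5%, 78.7% and 82.0% in sections 1, 2 and 3, against 61.0%, 58.7% and 68.1% for other fibroblasts. In the deepest 20% of the skin they made up 17.7%, 38.3% and 29.97% of fibroblasts, and in the shallowest 20% they made up 2.10%, 3.67% and 15.5%. The share was higher in the deepest band than in the shallowest in all 3 sections, and section 3 had a second rise at the surface. Inflammatory fibroblasts also lay together, and 24.9%, 36.0% and 32.7% of the fibroblasts around each of them were inflammatory, against 11.6%, 20.3% and 19.4% around other fibroblasts. With 3 pairs of values an exact sign-flip test cannot go below p = 0.25, so these differences are given without a test.

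The share of inflammatory fibroblasts along the wound differed between the flanks of a section. The epidermis was interrupted over 2700, 2800 and 2600 µm in sections 1, 2 and 3, and in this gap 6.30% (8 of 127), 34.5% (352 of 1020) and 12.4% (227 of 1825) of fibroblasts were inflammatory. Within 500 µm of the gap the share was 15.8% and 3.65% (5 of 137, 1.20 to 8.31) in the left and right flank of section 1, 23.1% and 25.3% in section 2, and 18.3% and 17.3% in section 3. The right Control flank was thus low next to the gap as well. From 500 to 1000 µm beside the gap the share was 17.7% and 14.1% in the left and right flank of section 1, 25.6% and 20.4% in section 2, and 33.0% and 22.3% in section 3. Beyond 1000 µm it was lower than from 500 to 1000 µm in both flanks of the Control section, at 3.75% (73 of 1949, 2.95 to 4.69) on the left and 6.36% (127 of 1998, 5.33 to 7.52) on the right. The right flank of section 2 and the left flank of section 3 were nearer to these, at 6.59% (108 of 1638, 5.44 to 7.91) and 7.18% (215 of 2994, 6.28 to 8.17), and their intervals overlapped that of the right Control flank. The intervals cover counting error only, and inflammatory fibroblasts lay together, so that overlap or its lack is no test between flanks. The left flank of section 2 and the right flank of section 3 stayed at 24.5% (1482 of 6042, 23.4 to 25.6) and 22.6% (3524 of 15622, 21.9 to 23.2), with intervals that did not overlap those of any other flank. With every fibroblast thinned to 30 transcripts, an alternative chosen after seeing the data, the shares were 6.43% and 4.59% in these flanks. They were 1.49% and 0.494% in the other flanks of sections 2 and 3, from 17 and 13 cells. In the left and right Control flank they were 0.169% and 0.827%, from 3 and 14 cells.

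Flank values here were taken beyond 1000 µm from the gap. The flanks with many inflammatory fibroblasts were also thicker and held more neutrophils. Their median thickness was 810.4 and 959 µm, against 509 to 550.2 µm in the other 4 flanks. Neutrophil-like cells made up 7.19% and 9.85% of their cells, against 0.0619% to 0.513% in the other 4 flanks. Over the whole of section 1, neutrophil-like cells outside the fibroblast rule numbered 2692 of 18276 cells with at least 10 transcripts. They numbered 4640 of 38198 in section 2 and 10731 of 66959 in section 3. Pitx1 in keratinocyte-like cells was at 562 (512 to 616) CPM in the left and 593 (488 to 714) in the right flank of section 2. In section 3 it was at 398 (283 to 545) in the left and 280.2 (249 to 314) in the right flank, so that Pitx1 was not higher in the flank with more inflammatory fibroblasts. Of the 4 genes of the rule, Cxcl5 differed most between the flanks of a PITX1+ section. Over all fibroblasts it was at 6919.5 and 5207 CPM in the thick flanks, against 389.9 and 1004 in the thin flank of the same section. It was at 76.3 and 328 in the left and right Control flank, and at 1770 over the whole Control section. Saa3 was well above the Control flanks also in the thin flank of section 2, which held 11414 CPM against 15058 in the thick flank. The Control flanks held 3789 and 4532, and the whole Control section held 6252. In section 3 Saa3 was at 6856 CPM in the thin and 16335 in the thick flank. The median fibroblast of the right flank of section 2 held 44 transcripts, against 75 to 87 in the other flanks. The part of thickness or neutrophils in these shares was not tested.

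**Figure D4:**
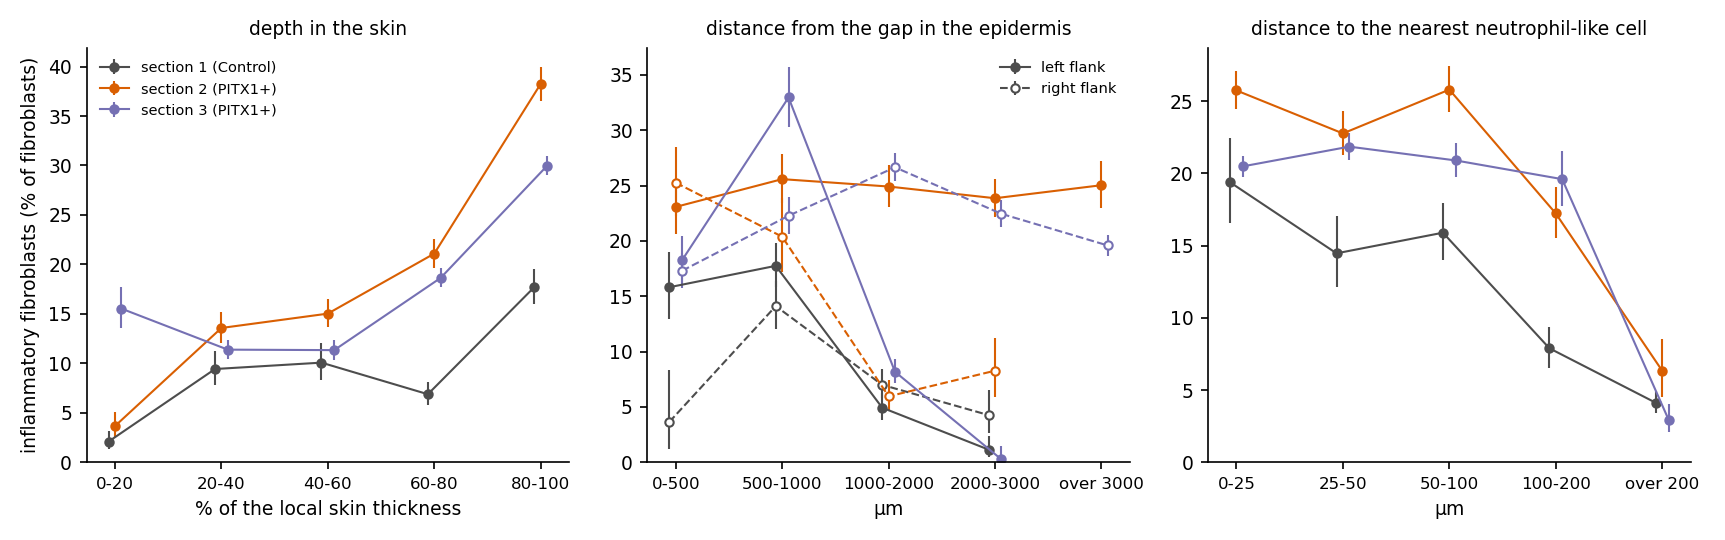
Inflammatory fibroblasts as a percentage of fibroblasts by relative depth in the skin (left), by distance in µm from the gap in the epidermis in each flank of bands with at least 100 fibroblasts (middle) and by distance in µm to the nearest neutrophil-like cell (right), with 95% exact binomial intervals. The shares of section 2 (left flank) and section 3 (right flank) stay between 19.6% and 26.6% beyond 1000 µm from the gap, while the other flanks lie below 10%.

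Inflammatory fibroblasts were more often near neutrophils. A neutrophil-like cell lay within 50 µm of 36.6%, 62.0% and 75.2% of them, against 19.7%, 56.7% and 70.9% of other fibroblasts. The difference was 16.9 percentage points in the Control section and 5.33 and 4.31 in the PITX1+ sections. Macrophage-like cells were nearer as well, with one within 25 µm of 59.4%, 74.4% and 79.7% of inflammatory fibroblasts, against 46.5%, 70.3% and 73.4% of other fibroblasts. At 25 µm the difference for macrophage-like cells was 12.9, 4.05 and 6.33 percentage points, and that for neutrophil-like cells 10.7, 5.47 and 1.30. Within 25 µm of a neutrophil-like cell the share of inflammatory fibroblasts was 19.4%, 25.7% and 20.5%, and beyond 200 µm it was 4.12%, 6.34% and 2.95%. At 25 to 50, 50 to 100 and 100 to 200 µm it was 14.5%, 15.9% and 7.90% in section 1. At these distances it was 22.8%, 25.8% and 17.2% in section 2 and 21.9%, 20.9% and 19.6% in section 3. In sections 2 and 3 the share thus did not fall steadily within 100 µm, and the lowest share lay beyond 200 µm. In the part of the skin deeper than 50% of its thickness, the share with and without a neutrophil-like cell within 50 µm was 18.2% against 10.5% in section 1, 25.8% against 30.2% in section 2 and 24.2% against 22.1% in section 3. In the shallower part it was 12.7% against 5%, 19.7% against 7.09% and 13.8% against 9.81%. In both parts of the skin the share was higher with a neutrophil-like cell within 50 µm, except in the deep skin of section 2, where it was lower. Fibroblasts were not matched on flank or distance from the gap. In the flanks as taken above, a neutrophil-like cell lay within 50 µm of 2.41% and 4.10% of fibroblasts in the left and right Control flank. The values were 65.1% and 12.4% in section 2 and 19.4% and 80.1% in section 3. In sections 2 and 3, the flank with more inflammatory fibroblasts thus had the higher share of fibroblasts near neutrophils. The part of flank or distance in the differences above was not tested.

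Genes of inflammatory fibroblasts near and far from neutrophils were compared over 262 against 454 cells in section 1, 1802 against 1103 in section 2 and 4161 against 1374 in section 3. Near and far cells were not matched on flank or distance from the gap, and the part of these in the differences below was not tested. Of 253 genes outside the rule, 13 were higher and 8 were lower near neutrophil-like cells (edgeR, adjusted p under 0.05). The fit held 260 genes with those of the rule, of which 14 (5.38%) were called higher and 9 (3.46%) lower, Cxcl5 and Ptx3 included, which chose the cells and are given only as levels. With the genes of the rule left out of the fit, an alternative chosen after seeing the data, 21 genes (8.3%) were higher and 15 (5.93%) lower, among them all 21 calls outside the rule. The neutrophil chemokine Cxcl1, outside the rule, was higher there. In CPM of all panel genes, Cxcl1 was at 2645 near against 1423 far in section 1, 8112 against 3533 in section 2 and 4473 against 2141 in section 3 (log2 fold change 0.92 ± 0.16 (SE, n = 3 sections), edgeR adjusted p = 0.0373). Of the genes of the rule, Cxcl5 was at 16176 against 4210.2, 26132 against 12014 and 13017 against 7698 and Ptx3 at 1722 against 2592, 3819.8 against 5464 and 1453 against 3435. Saa3 was at 20482 against 29906, 25094 against 36855 and 35877 against 41067 and Ccl7 at 12424 against 12046, 10625 against 7634 and 8494 against 7809. A cell high in 1 of these 4 genes needed less of the others to be chosen, so that their levels are tied to each other. Transcripts of neutrophils were also higher in these cells, and 4 of 6 neutrophil markers rose, against 5.38% of all genes. Among them were S100a8 (1.10, edgeR adjusted p = 0.0411), Mmp9 (1.24, edgeR adjusted p = 0.0148) and Il1b, at 5413 against 1783, 3934 against 1389 and 6548 against 1626 (1.56, edgeR adjusted p = 0.0148). The same 6 markers named the neutrophil-like cells that set near and far, so that their rise is tied to that choice and is no separate result. These 4 genes were among the 13 called higher. Whether their transcripts came from cells beside the fibroblasts was not tested. In inflammatory fibroblasts with no transcript of a neutrophil marker, an alternative chosen after seeing the data, 8 genes outside the rule were higher and 15 lower, 11 of the 21 calls were kept and Cxcl1 still rose. Higher genes were then 34.8% of the calls outside the rule in place of 61.9%. This choice of cells left all 6 neutrophil markers untested, the 4 that had risen among them, and 215 genes outside the rule were tested. The change in the calls kept and in the share of higher genes was thus in part set by the choice. Without section 2, 18 genes passed, and Cxcl1, Cxcl13, Igfbp5, Des, Krt18, Cd3g and Mmp9 lost their calls. Without the section as a block none of the genes passed, and 48 had an unadjusted p under 0.05.

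Pi16 and Gpx3, genes of resting dermal fibroblasts, were lower near neutrophils. Pi16 was at 2183 against 7432, 3722 against 14356 and 1168 against 4220.2 (log2 fold change -2.01 ± 0.13 (SE, n = 3 sections), edgeR adjusted p = 0.00280). Gpx3, a secreted glutathione peroxidase, was at 15623 against 28408, 18838 against 37662 and 18159.7 against 28934 (log2 fold change -0.998 ± 0.13 (SE, n = 3 sections), edgeR adjusted p = 0.0148). Cxcl13 was at 492 against 1289, 1926 against 5173 and 286 against 539.8 (log2 fold change -1.37 ± 0.20 (SE, n = 3 sections), edgeR adjusted p = 0.0220). Pi16 and Gpx3 were the only genes to pass of 8 tested genes of resting dermal fibroblasts, against 3.46% of all genes that fell. The median log2 fold change of the 8 was -1.11 against 0.04 over all genes. In inflammatory fibroblasts with no transcript of a neutrophil marker, 5 of the 8 fell (Pi16, Gpx3, Tnxb, Col14a1 and Igfbp6), against 16 of 222 genes. Igfbp5 (-1.60, edgeR adjusted p = 0.0424), the muscle filament gene Des (-1.57, edgeR adjusted p = 0.0411), the transcription factor Klf4 (-1.24, edgeR adjusted p = 0.0411), the surface sialomucin Cd34 (-1.22, edgeR adjusted p = 0.0148) and the mast cell protease Mcpt4 (-2.07, edgeR adjusted p = 0.0411) were the other genes outside the rule that fell. Il1rn was higher near neutrophils, at 2368 against 435, 1552 against 556 and 4305 against 975 (log2 fold change 1.85 ± 0.22 (SE, n = 3 sections), edgeR adjusted p = 0.0148). Krt18 (2.72, edgeR adjusted p = 0.0411), Cd3g (2.53, edgeR adjusted p = 0.0411), Sprr2d (1.94, edgeR adjusted p = 0.0295) and the CXCL receptor Cxcr2 (1.58, edgeR adjusted p = 0.0179), markers of epithelia, T cells, keratinocytes and neutrophils, completed the 6 with the largest rise. Of 139 Krt18 and 138 Cd3g transcripts, 130 and 128 lay in the near cells, so that the folds of these 2 genes rest on few transcripts in the far cells.

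The inflammatory fibroblasts of PITX1+ and Control sections were compared as values with 95% exact Poisson intervals, which cover counting error only. Of 239 genes with at least 100 transcripts, 9 (3.77%) were past 2-fold higher in each PITX1+ section than in the Control section and 6 (2.51%) were past 2-fold lower. In CPM, Csf3 was at 85.0 (34.2 to 175) in section 1, 365 (303 to 436) in section 2 and 456 (402 to 515) in section 3, from 7 transcripts in section 1. Other fibroblasts held 33.2, 154 and 313 CPM of it, in the same order of Control below PITX1+. Cxcl1 was at 2197 (1889 to 2542) in section 1, 7616 (7322 to 7919) in section 2 and 4643 (4468 to 4823) in section 3, and at 357, 2205 and 1676 in other fibroblasts. These genes, a granulocyte growth factor and a neutrophil chemokine, were higher in each PITX1+ section, and the intervals did not overlap that of the Control section. S100a8, Mmp9, Trem1 and Cxcr2, markers of neutrophils, and Sorl1 were higher as well, with S100a8 at 2489 (2159.5 to 2854) in section 1, 7299 (7011 to 7596) in section 2 and 7645 (7419.6 to 7875) in section 3. The same neutrophil genes were higher in other fibroblasts of PITX1+ sections, with S100a8 at 3086, 8456 and 10292. Il34, a ligand of the CSF1 receptor, and Foxp3, a gene of regulatory T cells with 6 transcripts in section 1, completed the list.

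Mcpt4, a mast cell protease, was lower in PITX1+ sections, at 2149 (1844 to 2489.5) in section 1, 627 (545 to 718) in section 2 and 361 (314 to 414) in section 3, against 610.0, 509 and 439 in other fibroblasts. Igf2, a growth factor of development, was at 1032 (824 to 1276) in section 1, 509.5 (436 to 592) in section 2 and 221 (184 to 263) in section 3, against 2683, 839.6 and 476 in other fibroblasts. Timp3 was at 2088 (1788 to 2424) in section 1, 977 (873 to 1089) in section 2 and 814 (742 to 892) in section 3, against 5650.4, 2992 and 1638 in other fibroblasts. The levels of Igf2 and Timp3 were thus lower in PITX1+ sections in both kinds of fibroblast. Angptl1 was at 619 (461 to 814) in section 1, 172 (130.2 to 223) in section 2 and 239 (200.2 to 282) in section 3, against 589, 161 and 159 in other fibroblasts. It was thus also lower in PITX1+ sections in both kinds of fibroblast. Wnt16 was at 364 (246 to 519.9) in section 1, 172 (130.2 to 223) in section 2 and 82.5 (60.6 to 109.7) in section 3, against 217, 172 and 80.3. The cornified envelope gene Sprr1b was at 339.9 (226 to 491) in section 1, 90.5 (61.0 to 129) in section 2 and 139 (109.7 to 173) in section 3, against 724, 708 and 527. With section 2 or section 3 alone against the Control section, 34 to 48 genes were past 2-fold, against the 15 that both shared.

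**Figure D5:**
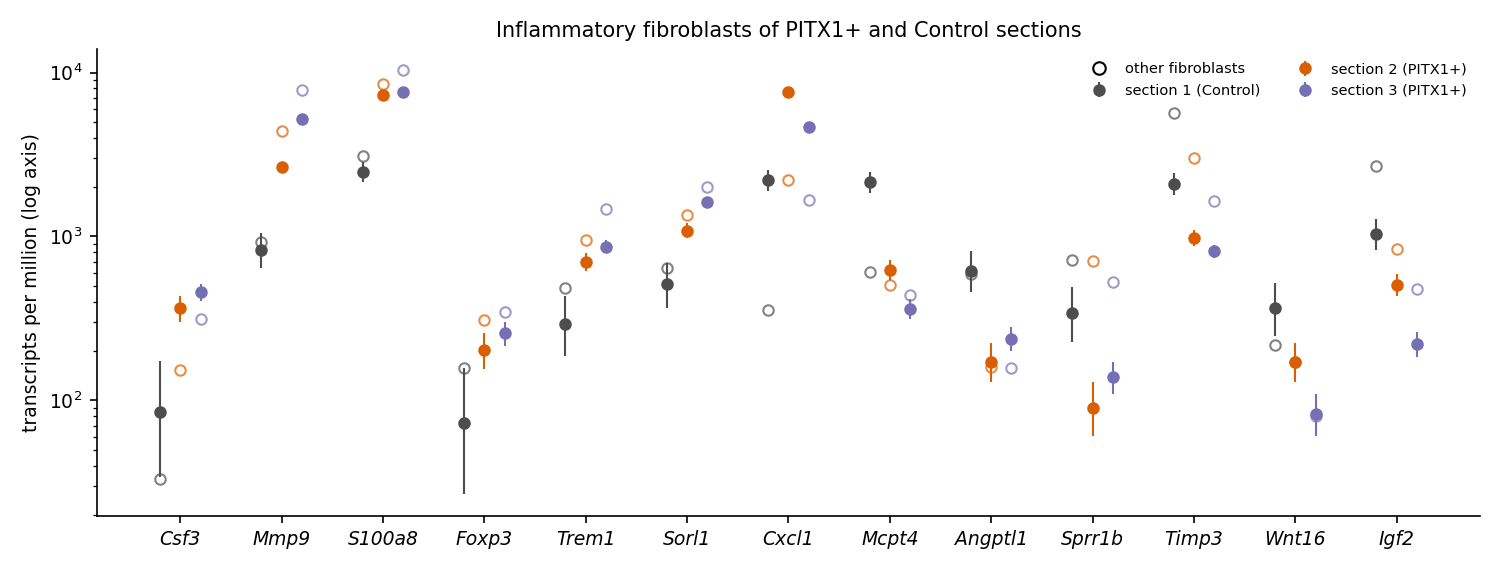
CPM (log axis) of genes past 2-fold in both PITX1+ sections, the 6 with the largest fold in each direction and Cxcl1, in inflammatory fibroblasts of each section (filled circles, with 95% exact Poisson intervals) and in other fibroblasts (open circles). Csf3 and Cxcl1 of inflammatory fibroblasts lie above those of other fibroblasts in all 3 sections, and Mmp9 and S100a8 lie below them.

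Fibroblasts past the same thresholds were also found on the unwounded slides. They were 209 of 29584 fibroblasts (0.706%) of unwounded male skin, 2535 of 60408 (4.20%) of unwounded female skin and 29 of 11290 (0.257%) of buccal mucosa. Within the female slide the 4 sections had 0.0215%, 0% (0 of 5013, which allows a share of up to 0.0736%), 9.66% and 2.65%. Thinned to 30 transcripts, the section with 9.66% had 7.93% (802 of 10111), above the 1.42%, 5.16% and 3.69% of the wound sections. In that section, Saa3 made up 20050 of 22570 CPM of the 4 genes over all fibroblasts, and Cxcl5 471. The fibroblasts of the 3 wound sections held 11673, 26017 and 23270 CPM of the 4 genes. Slide and tissue cannot be told apart in these values, and the conditions of the unwounded sections were not used here.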

How the data were processed

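Xenium In Situ runs of 4 slides of formalin-fixed sections were used: wounded male skin, unwounded male skin, unwounded female skin and buccal mucosa. The authors deposited, for each slide, counts of transcripts and control calls per cell, and a list of transcripts with their positions and cell. Each deposited transcript carries a quality score. The software version and the segmentation settings are not given in the sources used here, and the deposited cell outlines were not used. A transcript assigned to a neighbouring or overlying cell would change which cells meet the rule. Doublets were not removed.

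Counts per cell used transcripts of quality 20 or above. Sections were found by chaining cells within 200 µm (100 µm on the other slides) and keeping groups of 2000 or more cells. A cell outside the fibroblast rule was named after the marker list with the most transcripts, with at least 3. The members and the gene and marker lists were chosen with earlier results of these data known. The gap in the epidermis (bins of 100 µm with fewer than 20 keratinocyte-like cells), depth and flank measures were chosen after the map was seen.

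Counts were summed per section and tested with the quasi-likelihood test of edgeR 4.0.16 (limma 3.58.1, R 4.3.3), with TMM scaling, filterByExpr, the section as a block and Benjamini-Hochberg adjustment at 0.05. DESeq2 1.42.0 was an alternative. The fit was tested on simulated data. Other steps used Python 3.11.15 with numpy 2.4.6, pandas 2.3.3, scipy 1.17.1 and matplotlib 3.10.9. Genes were named when they passed with at least 100 transcripts and 1 direction in all 3 sections, the 12 with the largest fold each way, with up to 4 of each list, the 6 largest each way near neutrophils and the 6 largest each way between conditions. Further list genes that passed were named after their values were seen. Intervals cover counting error only.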

Additional observations from a re-analysis of the deposited data

Results flagged for a closer look

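The ratio of CPM in inflammatory over other fibroblasts, without TMM scaling, lay on opposite sides of 1 in the Control section and in both PITX1+ sections for 4 genes, and the difference between conditions was not tested. Scaling by TMM, added here after seeing the data, moved every ratio up and left 2 of them on opposite sides. Des, the intermediate filament gene of muscle, had a ratio of 0.438 in section 1, 1.31 in section 2 and 1.39 in section 3, and of 0.578, 1.70 and 1.80 with TMM. Il1b, which encodes interleukin 1 beta and is here also a neutrophil marker, had a ratio of 1.24 in section 1, 0.750 in section 2 and 0.700 in section 3, and of 1.64, 0.978 and 0.910 with TMM, so that sections 2 and 3 lay close to 1. Col6a1, a chain of collagen VI, had ratios of 1.30, 0.912 and 0.892, and Tgfbi, a matrix protein induced by TGF-beta, had ratios of 1.12, 0.874 and 0.901. With TMM both were above 1 in all 3 sections, Col6a1 at 1.71, 1.19 and 1.16 and Tgfbi at 1.48, 1.14 and 1.17, and no opposite direction was left.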

How the results depend on the processing

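Of 50 genes recomputed for inflammatory against other fibroblasts, only Igfbp7 reversed, to -0.11 without cells holding markers of other classes. In 30 genes 115 values were no longer past the threshold, 11 values of Il1rn and Cxcl3 newly passed it and 769 kept their side. Of 17 genes recomputed near against far from neutrophils, none reversed, 33 values were no longer past the threshold and 176 kept their side. Genes named between conditions were recomputed as counts only. The number of genes passed was 143, and it became 71 without the section as a block, 60 without cells holding markers of other classes, 77 among cells led by fibroblast markers, and 102 (without section 3) to 151 when 1 section was left out. For cells near against far from neutrophils 23 genes passed, 21 of them outside the rule. The 23 became 36 with the genes of the rule left out, 49 with library size scaling, 46 with DESeq2, 48 with no filter on genes, 0 without the section as a block, 54 within 25 µm, 37 within 100 µm, 15 with transcripts over the nucleus and 50 in the deeper part of the skin. Leaving out 1 section gave 18 (without section 2) to 44 (without section 1), with 38 without section 3, and 12 of the 21 calls outside the rule were kept without section 2. The cause of these changes was not tested.

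The share of inflammatory fibroblasts in sections 1, 2 and 3 was 15.1%, 29.4% and 27.6% at 3 transcripts of the 4 genes, 2.42%, 9.67% and 6.14% at 8, 1.42%, 5.16% and 3.69% after thinning and 5.51%, 15.3% and 9.79% over the nucleus, with section 1 lowest each time. With at least 20 transcripts per cell it was 23.9% in section 2 and 20.9% in section 3. At 3 transcripts, at 8 and after thinning, the share was 0.425%, 0.0266% and 0.0190% in buccal mucosa, 5.92%, 1.35% and 2.39% in unwounded female skin and 1.18%, 0.0980% and 0.0381% in unwounded male skin. The excess of inflammatory fibroblasts with a neutrophil-like cell nearby was 10.7 percentage points within 25 µm and 29.9 within 100 µm in section 1, 9.13 within 100 µm in section 2 and 1.30 within 25 µm in section 3. Between conditions 15 genes were past 2-fold, 39 were past 1.5-fold and 3 past 3-fold, 30 at 8 transcripts (24 higher and 6 lower, against 9 and 6) and 19 over the nucleus (15 and 4), and 34 (without section 3) to 48 (without section 2) with 1 PITX1+ section. The fits were paired by section, with the values without that block given above.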
